A study of Mus musculus with 9 samples.

Results

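The 10 genes described here are a nuclear receptor pair, Pparg and Ppard, a lipid droplet coat gene, Plin2, and 7 genes of mitochondrial fatty acid oxidation, Cpt1a, Cpt2, Acadl, Acadm, Acadvl, Hadha and Hadhb. They are 10 of the 55421 genes in the count table, and all 10 were among the 15711 genes with enough reads to be tested. For Pparg, only MitoPositive cells reached the filter's minimum count in every library. It was thus tested, in all comparisons, through the group where it is highest. They were selected on how their counts differed among the 3 groups, so their differences are given as a description with no p-value. Where a member is said to pass the 0.05 threshold of the fit over all genes, that too is a description and no independent test. All RNA came from CD8+ T cells taken from the spleen of Pmel Ly5.1 mice, whose T cells carry 1 transgenic receptor against a melanoma antigen. The age of the mice was not given. MitoPositive and MitoNegative cells had been kept for 36 h with DM5, a single immortalised line of C57BL/6 bone marrow stromal cells with DsRed-labelled mitochondria. They were then sorted on DsRed, MitoPositive being DsRed+ and MitoNegative DsRed-. Monoculture cells came from the same genotype and were not co-cultured. Each group held 3 libraries, lettered B, C and D. The labels do not say whether the letters are separate animals, so each p-value reflects the spread among libraries, which may be technical. DsRed fluorescence defines the sorted groups by signal carried by a cell, and the sequencing does not separate RNA made in the T cell from RNA carried in with stromal material.

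Peroxisome proliferator-activated receptors (PPARs) are ligand-activated transcription factors that bind DNA as heterodimers with retinoid X receptors and sense fatty acids and their derivatives. Pparg is the master regulator of fat cell formation and is also used by some macrophage and T cell subsets, while Ppard is expressed widely. Mitochondrial fatty acid oxidation starts when carnitine palmitoyltransferases carry long-chain acyl groups across the mitochondrial membranes. Acyl-CoA dehydrogenases of different chain length preference then introduce a double bond, and the trifunctional protein completes the cycle for long chains. Memory CD8+ T cells are known for their use of this pathway, and effector cells for their use of glycolysis.

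The 9 libraries held 53546152 to 74722832 counts each. All 8 CD8+ T cell markers listed were above 1 CPM (read counts scaled to library depth by TMM) in every library, and Cd8a stood at 1175 ± 96.9, 1270 ± 70.9 and 1202 ± 63.2 CPM (SD, n = 3) in monoculture, MitoNegative and MitoPositive cells. Stromal markers moved with co-culture. Their summed level over 25 listed genes was 6.16 to 7.60 CPM in monoculture, where 14 of them, including Col1a2, Col3a1, Pdgfra and Dcn, had no count. It was 46.3, 55.4 and 19.8 CPM in MitoNegative libraries B, C and D and 41.2, 52.6 and 20.01 CPM in MitoPositive libraries B, C and D. The sums therefore tracked the letter, and the sorted groups overlapped. Of the 21 stromal markers tested, 19 were higher in each sorted group than in monoculture and 0 differed between MitoPositive and MitoNegative cells (edgeR, adjusted over all genes). The 10 adipocyte markers summed to at most 0.193 CPM in any library, none reached 1 CPM, and Adipoq, Lep and Cfd had no count in either sorted group. The 12 myeloid markers summed to 4.01 to 5.18 CPM in monoculture, 5.22 to 8.57 CPM in MitoNegative and 6.30 to 7.55 CPM in MitoPositive cells. Only Cd68 had means above 1 CPM, at 2.72, 5.84 and 6.03 CPM in monoculture, MitoNegative and MitoPositive cells. Among the rest, Adgre1 and Lyz2 had lower means in both sorted groups than in monoculture, and Mrc1 and Cd14 had higher means. B cell markers summed to 65.6 to 94.3 CPM in monoculture, 22.2 to 35.4 CPM in MitoNegative and 18.7 to 32.0 CPM in MitoPositive cells. In these bulk libraries, fewer cells of a type and less RNA per cell cannot be told apart, and the part of the other cell types in the comparisons with monoculture was not tested.

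Pparg was the member with the largest difference between the sorted groups and was at low counts throughout. It had 58, 53 and 39 counts in MitoPositive libraries B, C and D, or 0.764, 0.990 and 0.544 CPM. The MitoNegative libraries had 8, 11 and 6 counts, or 0.119, 0.158 and 0.0889 CPM. Monoculture had 0, 0 and 1 count. The 3 groups did not overlap, and within each sorted group library C was highest and library D lowest. Pooled over libraries, MitoPositive cells held 6.10 times the MitoNegative level (95% exact interval 3.98 to 9.73, 150 against 25 counts). The ratio to monoculture was 135 for MitoPositive cells (23.9 to 5383, 150 counts against 1) and 22.2 for MitoNegative cells (3.63 to 911, 25 counts against 1). These intervals cover counting error only, and the ratios to a single count have no useful upper limit.

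The fitted log2 difference of Pparg between MitoPositive and MitoNegative cells was 2.62 ± 0.396 (SE), and it was 2.68, 2.65 and 2.61 within letters B, C and D. It passed the 0.05 threshold, and it did not when MitoPositive B or C, MitoNegative B, C or D, or monoculture C was left out (log2 difference 2.41 to 2.85 over these). The order of Pparg over letters, C above B above D in both sorted groups, was also the order of the summed stromal markers. The stromal sums of MitoPositive and MitoNegative libraries of the same letter lay close together, whereas Pparg differed in every letter. The part of stromal RNA in the Pparg counts was not tested.

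The promoter windows of Pparg and Plin2, the members with the largest differences from monoculture, are printed here because both hold the hexamer AGGTCA, the core motif that nuclear receptors of this class recognise. Each window runs 5′ to 3′ on the gene's strand, from 250 bases before to 50 bases after an annotated start (RefSeq, GRCm38.p6), with the hexamer on either strand in capitals. The Pparg window is chr6:115360894-115361193 on the plus strand, the first of 3 annotated Pparg starts, which the gene counts do not separate. The Plin2 window is chr4:86670010-86670309 on the minus strand.
Pparg: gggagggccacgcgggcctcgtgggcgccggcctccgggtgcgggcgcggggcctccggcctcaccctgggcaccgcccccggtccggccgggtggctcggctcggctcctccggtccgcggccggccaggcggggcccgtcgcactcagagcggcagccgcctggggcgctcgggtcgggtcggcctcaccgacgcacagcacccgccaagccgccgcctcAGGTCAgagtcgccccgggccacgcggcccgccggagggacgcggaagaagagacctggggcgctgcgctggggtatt
Plin2: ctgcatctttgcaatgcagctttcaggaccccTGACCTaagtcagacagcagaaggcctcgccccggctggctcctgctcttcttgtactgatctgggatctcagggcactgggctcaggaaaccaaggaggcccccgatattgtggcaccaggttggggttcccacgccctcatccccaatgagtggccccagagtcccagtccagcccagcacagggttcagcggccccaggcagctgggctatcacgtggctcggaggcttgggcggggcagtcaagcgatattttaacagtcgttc
The hexamer was searched on both strands in 12 windows of the 10 members. It was present in 6 windows of 5 members, Pparg, Plin2, Cpt1a, Acadm and Acadvl, against 16.3% of 32851 mouse promoter windows of this length. The full direct repeat AGGTCANAGGTCA, which contains the hexamer, was in 0 of the 12 windows and in 0.0396% of all windows. A match describes the letters of a window and not a bound site.

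Ppard, the widely expressed receptor, differed little among groups. It stood at 18.3, 18.2 and 17.7 CPM in monoculture, 16.9, 16.7 and 17.1 CPM in MitoNegative and 16.1, 15.6 and 17.7 CPM in MitoPositive libraries B, C and D. Every MitoNegative library lay below every monoculture library, and the MitoPositive libraries overlapped both other groups. The log2 differences were -0.09 ± 0.0715 for MitoNegative and -0.13 ± 0.0716 for MitoPositive cells against monoculture and -0.04 ± 0.0715 between the sorted groups, and none passed the threshold. The gene lies at chr17:28232700-28301474 and Pparg at chr6:115360951-115490399, both on the plus strand of GRCm38. The remaining receptor of the family, Ppara, which drives fatty acid oxidation in liver, had 0 to 3 counts per library.

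Plin2 encodes perilipin 2, which coats lipid droplets and is a classic PPAR target (chr4:86648386-86670060, minus strand). Monoculture libraries B, C and D had 23.9, 29.6 and 31.3 CPM, MitoNegative libraries 59.2, 56.7 and 61.3 CPM, and MitoPositive libraries 63.0, 64.2 and 63.9 CPM. All 6 co-culture libraries lay above the 3 monoculture libraries, and all MitoPositive libraries lay above all MitoNegative ones by a small margin. The level was 2.09-fold higher in MitoNegative cells (log2 1.06 ± 0.0855) and 2.25-fold higher in MitoPositive cells (log2 1.17 ± 0.0857) than in monoculture. Between the sorted groups the log2 difference of 0.11 ± 0.0837 did not pass the threshold.

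**Figure D1:**
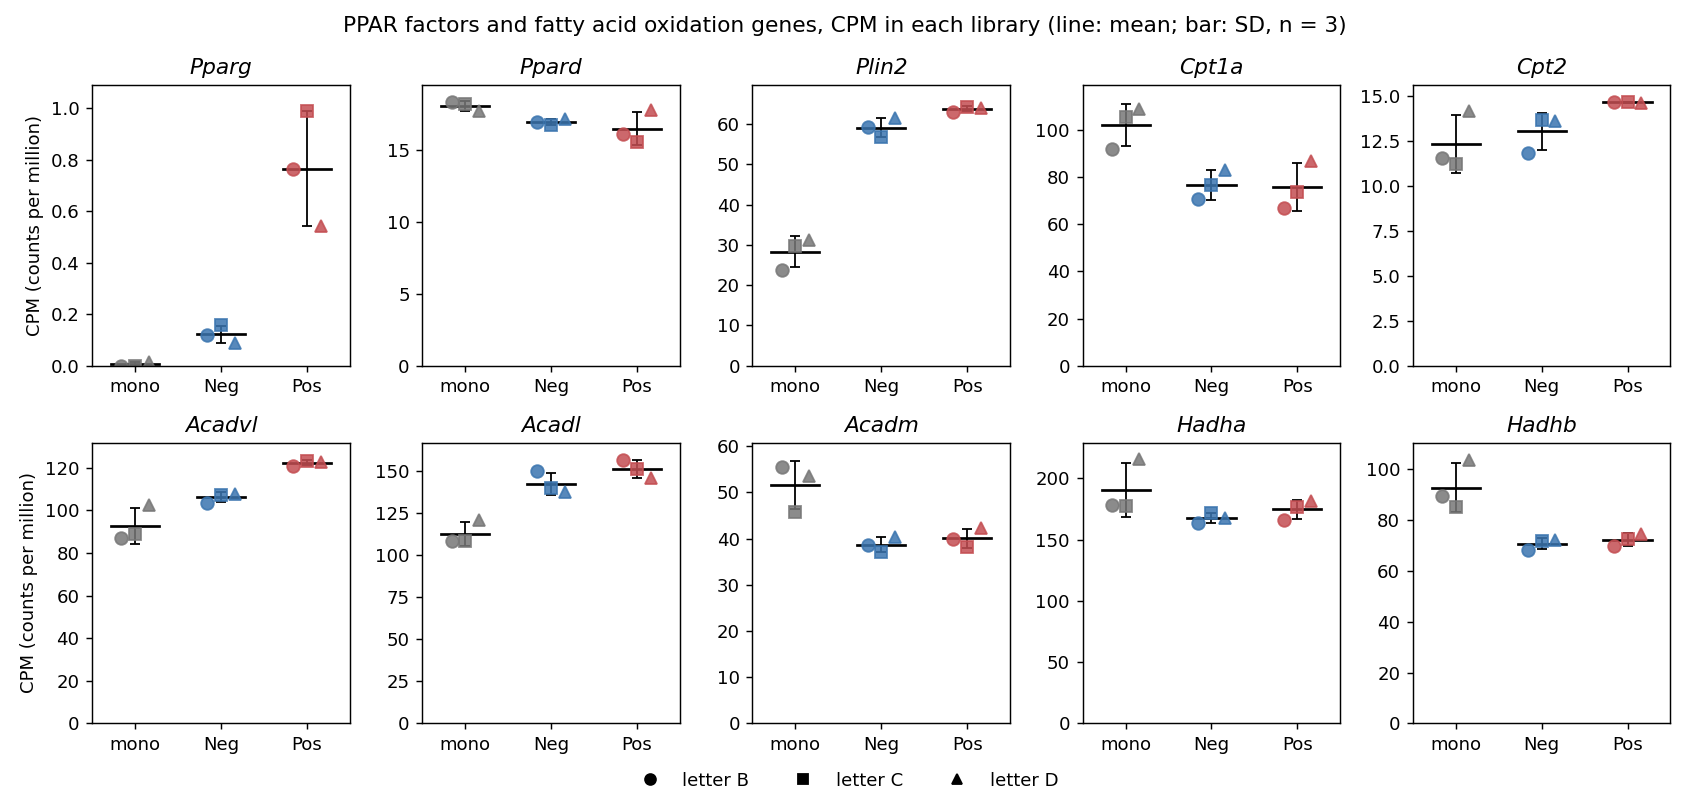
CPM of each of the 10 genes (vertical axes, 1 panel a gene) in monoculture, MitoNegative and MitoPositive cells, with 1 point a library marked by its letter a line at the group mean and a bar for the SD. Pparg, Plin2 and Acadvl separate all 3 groups, and the oxidation enzymes lie on either side of monoculture.

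Of the carnitine palmitoyltransferases, Cpt1a was lower after co-culture and Cpt2 had no call. Cpt1a, the outer membrane enzyme that malonyl-CoA inhibits and that sets the rate of long-chain entry, stood at 92.0, 105 and 109 CPM in monoculture, 70.5, 76.6 and 83.1 CPM in MitoNegative and 66.7, 73.8 and 86.7 CPM in MitoPositive libraries B, C and D. Every sorted library lay below every monoculture library, and the sorted groups overlapped. Cpt1a was 1.33-fold lower in MitoNegative (log2 -0.41 ± 0.09995) and 1.35-fold lower in MitoPositive cells (log2 -0.43 ± 0.09995) than in monoculture. In each group library B was lowest and library D highest.

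Cpt2, the inner membrane enzyme that re-forms acyl-CoA, had 11.6, 11.2 and 14.2 CPM in monoculture, 11.8, 13.7 and 13.6 CPM in MitoNegative and 14.7 CPM in each MitoPositive library. All MitoPositive libraries lay above the others, and MitoNegative and monoculture libraries overlapped. The log2 difference of MitoPositive cells was 0.25 ± 0.101 from monoculture and 0.17 ± 0.101 from MitoNegative cells, and neither passed the threshold. The first passed with the letter as a block, at log2 0.26. Between MitoPositive and monoculture libraries, letters B and D were paired (residual correlation above 0.1) and letter C was not. Cpt1a lies at chr19:3322334-3385733 on the plus strand and Cpt2 at chr4:107903981-107923610 on the minus strand.

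The 3 acyl-CoA dehydrogenases did not move together. Acadvl, the very long-chain enzyme bound to the inner membrane, stood at 87.2, 88.7 and 102 CPM in monoculture, 104, 107 and 108 CPM in MitoNegative and 121, 123 and 123 CPM in MitoPositive libraries B, C and D. The groups did not overlap, with monoculture lowest and MitoPositive highest. Acadvl was 1.32-fold higher in MitoPositive cells than in monoculture (log2 0.40 ± 0.0642) and 1.15-fold higher in MitoPositive than in MitoNegative cells (log2 0.20 ± 0.0640, not past the threshold). MitoNegative cells exceeded monoculture by log2 0.20 ± 0.0641. That difference passed, but not without monoculture B or C or MitoNegative C or D (log2 0.15 to 0.20 over these). Acadvl overlaps Dvl2 on the opposite strand, with 2049 to 3104 Dvl2 counts per library. Whether the counting used strand is not stated, and reads in the overlap of the genes cannot be told apart.

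Acadl, the long-chain dehydrogenase, stood at 109, 109 and 121 CPM in monoculture, 150.1, 140.0 and 138 CPM in MitoNegative and 157, 151 and 146 CPM in MitoPositive libraries B, C and D. All sorted libraries lay above all monoculture libraries, and the sorted groups overlapped. The log2 difference from monoculture was 0.34 ± 0.0625 in MitoNegative and 0.42 ± 0.0625 in MitoPositive cells, and it was 0.08 ± 0.0623 between the sorted groups, which did not pass.

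Acadm, the medium-chain dehydrogenase, had the opposite sign. It stood at 55.6, 45.6 and 53.6 CPM in monoculture, 38.5, 37.1 and 40.4 CPM in MitoNegative and 39.8, 38.1 and 42.3 CPM in MitoPositive libraries B, C and D. All sorted libraries lay below all monoculture libraries. The log2 difference was -0.42 ± 0.0764 in MitoNegative and -0.36 ± 0.0764 in MitoPositive cells, with 0.05 ± 0.0765 between them. The short-chain enzyme Acads, which was not among the 10, did not differ from monoculture past the threshold (log2 -0.10 ± 0.0749 in MitoNegative and -0.04 ± 0.0749 in MitoPositive cells, adjusted p = 0.316 and 0.674, edgeR).

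The promoter windows of the enzymes are shown to compare genes of 1 pathway that lay on opposite sides of monoculture. Acadvl (chr11:70015379-70015678, minus strand) and Acadl (chr1:66863260-66863559, minus strand) were higher after co-culture, and Acadm (chr3:153944594-153944893, minus strand) and Cpt1a (chr19:3323051-3323350, plus strand) were lower. Capitals again mark AGGTCA on either strand.
Acadvl: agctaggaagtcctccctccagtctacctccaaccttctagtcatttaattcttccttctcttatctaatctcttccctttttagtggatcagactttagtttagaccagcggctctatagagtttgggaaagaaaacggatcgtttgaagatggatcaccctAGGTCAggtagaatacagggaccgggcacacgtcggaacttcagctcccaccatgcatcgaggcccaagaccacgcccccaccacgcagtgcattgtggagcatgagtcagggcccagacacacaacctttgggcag
Acadl: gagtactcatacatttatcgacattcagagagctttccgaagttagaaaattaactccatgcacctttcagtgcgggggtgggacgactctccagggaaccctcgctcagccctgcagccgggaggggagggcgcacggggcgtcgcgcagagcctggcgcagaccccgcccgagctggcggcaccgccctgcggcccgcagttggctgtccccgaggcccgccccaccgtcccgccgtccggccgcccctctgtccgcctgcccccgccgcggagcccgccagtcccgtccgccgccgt
Acadm: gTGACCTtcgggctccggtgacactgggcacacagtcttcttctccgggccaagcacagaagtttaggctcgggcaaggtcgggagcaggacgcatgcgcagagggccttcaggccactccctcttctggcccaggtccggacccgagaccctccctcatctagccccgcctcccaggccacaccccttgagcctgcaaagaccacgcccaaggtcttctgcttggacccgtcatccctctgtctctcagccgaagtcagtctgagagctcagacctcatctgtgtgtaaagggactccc
Cpt1a: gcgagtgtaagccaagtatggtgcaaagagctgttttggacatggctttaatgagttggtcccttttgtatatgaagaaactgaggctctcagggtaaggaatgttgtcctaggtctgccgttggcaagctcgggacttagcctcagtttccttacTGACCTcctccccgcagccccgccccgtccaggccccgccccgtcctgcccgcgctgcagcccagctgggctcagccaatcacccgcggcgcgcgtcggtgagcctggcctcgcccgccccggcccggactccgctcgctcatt
The hexamer was in the window of 1 higher gene, Acadvl, and in the windows of both lower genes, so its presence did not sort these 4 windows by direction. The GC box GGGCGG on either strand was in 9 of the 12 member windows and in 35.7% of all windows.

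**Figure D2:**
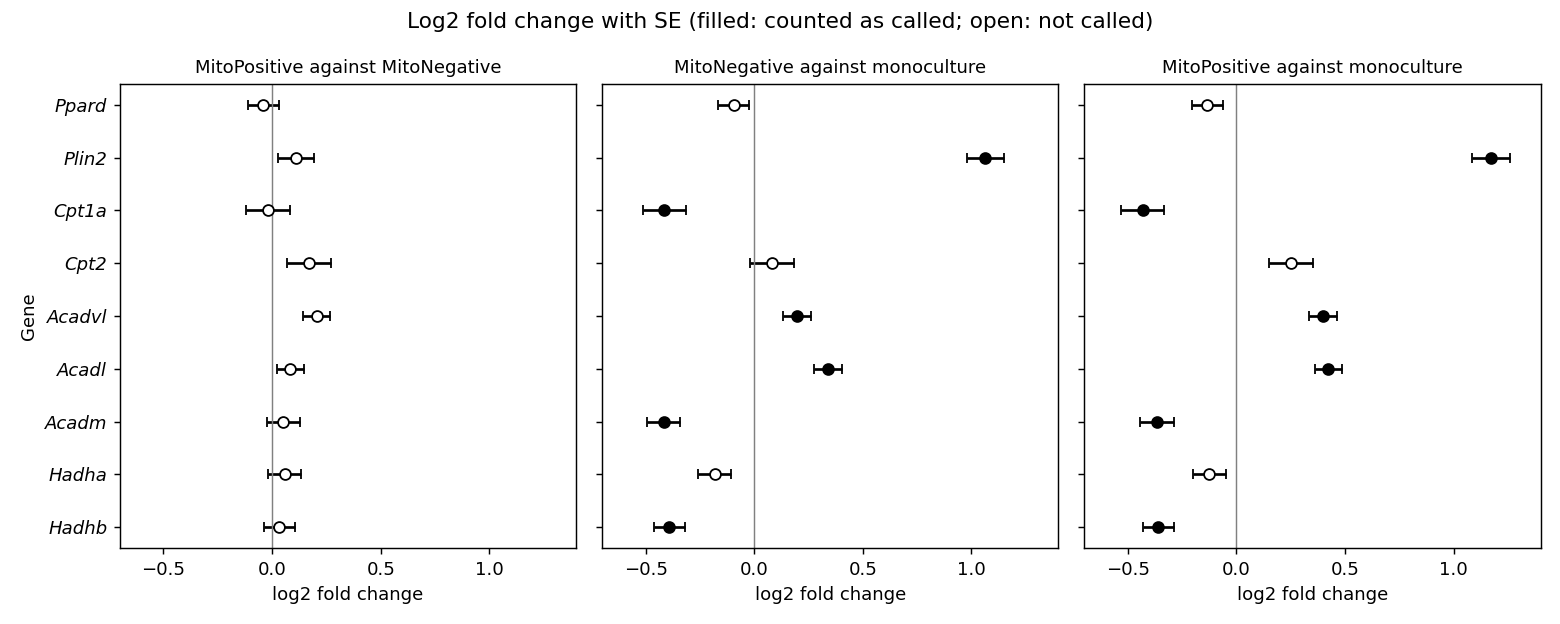
Log2 fold change ± SE (horizontal axis) of 9 of the genes in the 3 comparisons, from 9 libraries. Pparg is not plotted. Plin2, Acadl and Acadvl lie to the right of 0 and Cpt1a, Acadm and Hadhb to the left in both comparisons with monoculture.

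Hadha and Hadhb encode the alpha and beta subunits of the mitochondrial trifunctional protein, which acts on long-chain intermediates as one complex. Hadha carries the hydratase and hydroxyacyl dehydrogenase activities and Hadhb the thiolase. Hadha stood at 178, 177 and 216 CPM in monoculture, 164, 172 and 168 CPM in MitoNegative and 166, 177 and 181 CPM in MitoPositive libraries B, C and D. MitoNegative libraries lay below all monoculture libraries, and MitoPositive libraries overlapped both. The log2 difference was -0.18 ± 0.0767 for MitoNegative and -0.12 ± 0.0767 for MitoPositive cells against monoculture, neither past the threshold. With the letter as a block the first of these passed, at log2 -0.18.

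Hadhb stood at 89.6, 85.2 and 104 CPM in monoculture, 68.2, 71.7 and 72.2 CPM in MitoNegative and 69.8, 72.6 and 74.7 CPM in MitoPositive libraries B, C and D. All sorted libraries lay below all monoculture libraries and the sorted groups overlapped. It was 1.31-fold lower in MitoNegative (log2 -0.39 ± 0.0712) and 1.28-fold lower in MitoPositive cells (log2 -0.36 ± 0.0712) than in monoculture. The difference between sorted groups was log2 0.03 ± 0.0712 for Hadhb and 0.06 ± 0.0767 for Hadha.

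The subunit genes lie head to head on chromosome 5, Hadha at chr5:30118304-30155162 on the minus strand and Hadhb at chr5:30155248-30184593 on the plus strand, with 85 bases between their deposited starts. Their promoter windows share 228 bases, chr5:30155003-30155230, printed on the plus strand (Hadhb's) because it lies in the windows of both genes. No base is in capitals, since the hexamer was not found in these letters.
Hadha and Hadhb shared window: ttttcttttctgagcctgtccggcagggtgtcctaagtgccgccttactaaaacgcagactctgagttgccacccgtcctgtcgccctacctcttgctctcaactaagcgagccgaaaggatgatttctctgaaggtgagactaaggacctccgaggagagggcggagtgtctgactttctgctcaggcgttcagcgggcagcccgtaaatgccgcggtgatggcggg
The ratio of Hadhb to Hadha, each as CPM per kilobase of exon, separated monoculture from the sorted groups. It was 0.646 ± 0.0167 (SD, n = 3; 0.635 to 0.665) in monoculture, 0.558 ± 0.00966 (0.552 to 0.569) in MitoNegative and 0.548 ± 0.00718 (0.543 to 0.556) in MitoPositive cells. The monoculture libraries all lay above the 6 others, and the sorted groups overlapped.

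Ratios between other pairs of enzymes separated the cultures in some pairs and not in others. The per-kilobase ratio of Acadm to Acadl was 0.235 ± 0.0241 (0.215 to 0.262) in monoculture, 0.139 ± 0.00976 (0.131 to 0.150) in MitoNegative and 0.136 ± 0.0107 (0.129 to 0.148) in MitoPositive cells. The ratio of Acadm to Acadvl was 0.384 ± 0.0467 in monoculture, 0.250 ± 0.0112 in MitoNegative and 0.225 ± 0.0122 in MitoPositive cells. The medium-chain gene thus stood lower relative to both genes of longer chain preference in every sorted library. The ratio of Cpt1a to Cpt2 was 2.61 ± 0.287 (2.40 to 2.94) in monoculture, 1.84 ± 0.0833 (1.75 to 1.91) in MitoNegative and 1.61 ± 0.218 (1.42 to 1.85) in MitoPositive cells. The ratio of Acadvl to Acadl did not separate the cultures. It was 0.613 ± 0.0162 (0.599 to 0.631) in monoculture, 0.556 ± 0.0360 (0.515 to 0.582) in MitoNegative and 0.604 ± 0.0260 (0.576 to 0.628) in MitoPositive cells, so MitoPositive libraries overlapped both other groups. All are descriptions of members chosen on these libraries.

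**Figure D3:**
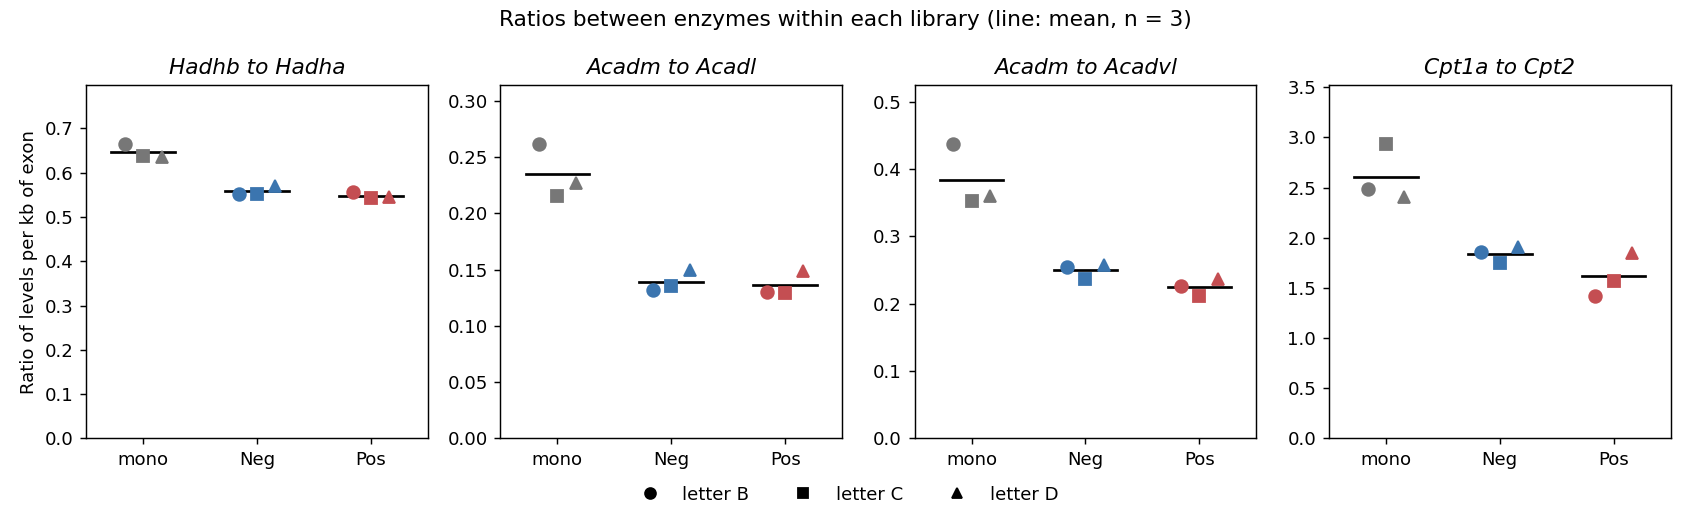
Ratios of per-kilobase levels of enzyme pairs (vertical axes) in each library, by group, with 1 point a library and a line at the group mean. For Hadhb to Hadha, Acadm to Acadl and Cpt1a to Cpt2 the 3 monoculture points lie above the 6 points of the sorted groups.

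The per-kilobase scale divides by all bases covered by a gene's deposited exons, which need not be the length of the transcript in these cells. The order of genes depends on these lengths, 8730 bases for Hadha and 2005 for Acadl. By CPM alone Hadha was above Acadl, at 190 and 113 CPM in monoculture. On the per-kilobase scale, monoculture cells held Acadl at 56.2 ± 3.57, Acadvl at 34.5 ± 3.08 and Hadha at 21.8 ± 2.51 CPM per kilobase. Hadhb (14.1 ± 1.45), Cpt1a (13.4 ± 1.17) and Acadm (13.2 ± 1.34) followed and did not differ beyond their spread. Plin2 (8.05 ± 1.11), Cpt2 (5.16 ± 0.675) and Ppard (2.40 ± 0.0465) came next, and Pparg was last with a mean of 0.00187. In MitoPositive cells the order began with Acadl at 75.5 ± 2.68, Acadvl at 45.6 ± 0.469 and Hadha at 20.01 ± 0.898. Plin2 came next there at 18.1 ± 0.177, above Hadhb (11.0 ± 0.370), Acadm (10.2 ± 0.530) and Cpt1a (9.91 ± 1.33), the last 3 within their spread. Cpt2 (6.14 ± 0.00797) and Ppard (2.19 ± 0.151) stayed in the same places, and Pparg reached 0.259 CPM per kilobase. MitoNegative cells had Acadl at 71.2 ± 3.23, Acadvl at 39.5 ± 0.826, Hadha at 19.2 ± 0.483 and Plin2 at 16.8 ± 0.665 CPM per kilobase, the same first 4 genes as in MitoPositive cells.

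**Figure D4:**
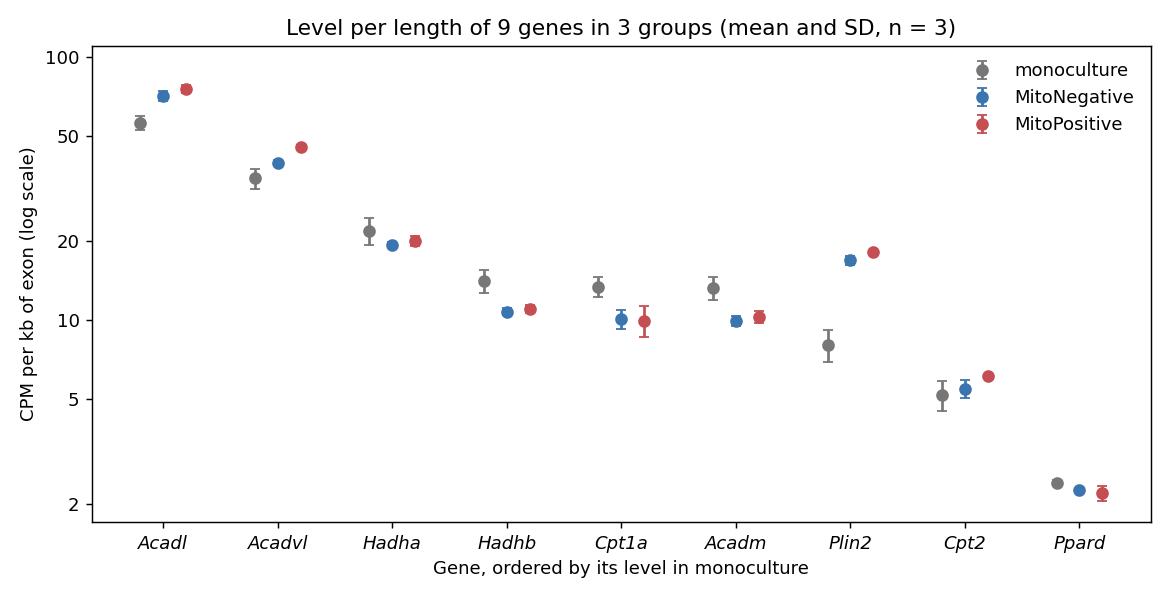
Level of 9 of the genes as CPM per kilobase of exon (vertical log axis), as the mean and SD of 3 libraries a group; Pparg is left out because it has libraries at 0. On this scale, which depends on the deposited exon lengths, Acadl is highest in every group. Plin2 moves from below Acadm in monoculture to above it in both sorted groups.

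Counted over the 10 genes, MitoPositive against MitoNegative cells gave 1 higher call, Pparg, and 0 lower calls, where 0.0891% of all tested genes were called higher and 0.0764% lower. In 4 genes, Pparg, Plin2, Cpt2 and Acadvl, all MitoPositive libraries lay above all MitoNegative ones (10.5% of all genes), and in 0 genes all lay below (9.55%). MitoPositive exceeded MitoNegative in all 3 letters for 8 genes (25.2% of all genes), was lower in all 3 for 0 (24.7%), and was mixed for Ppard and Cpt1a. MitoNegative against monoculture gave 4 higher calls (Pparg, Plin2, Acadl and Acadvl; background 20.6%) and 3 lower calls (Cpt1a, Acadm and Hadhb; 18.3%). All libraries lay above in 4 genes (25.9%) and below in 5 (22.9%). MitoPositive against monoculture gave the same 4 higher (22.3%) and 3 lower calls (19.9%), with all libraries above in 5 genes (27.3%) and below in 3 (24.3%). The median log2 difference over the members was 0.07, -0.01 and 0.06 in these comparisons, beside medians within 0.01 of 0 over all genes. The comparisons share libraries, and since the rule used these contrasts, nothing is read from the counts.

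A wider set of 149 genes in 9 lists of PPAR partners, PPAR targets and fatty acid metabolism, none of them among the 10, put these values in context. Of the 113 that could be tested, 1 rose and 0 fell between MitoNegative and MitoPositive cells without the letter as a block. In that fit 0.0891% of all genes were higher and 0.0764% lower. Letters paired the libraries of these groups (residual correlations 0.40, 0.34 and 0.46 for B, C and D). With the block more genes passed, among all genes and among the 113, so an absence of differences is not read from this count. Against monoculture, 17 were higher and 37 lower in MitoNegative cells, where 20.6% of all genes were higher and 18.3% lower. In MitoPositive cells 26 were higher and 35 lower, where 22.3% of all genes were higher and 19.9% lower. The counts of the single lists below stand beside these same shares, and nothing particular to a list is read from them. The median log2 difference of the 113 genes was -0.05 and -0.07, beside 0.01 and 0.00 over all genes. All adjusted p-values below are from edgeR's quasi-likelihood test with Benjamini-Hochberg adjustment over all genes.

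Of the 16 PPAR partners and cofactors tested, 2 were higher and 8 lower in MitoNegative cells, and 2 higher and 10 lower in MitoPositive cells, than in monoculture. Rxra, a heterodimer partner of the PPARs, fell from 2.93 ± 0.781 CPM in monoculture to 1.15 ± 0.266 in MitoNegative (log2 -1.35 ± 0.237, adjusted p = 0.000907) and 1.29 ± 0.149 CPM in MitoPositive cells (log2 -1.17 ± 0.235, adjusted p = 0.0018). The steroid receptor coactivators Ncoa2 and Ncoa3 fell by 0.40 and 0.37 on the log2 scale in MitoNegative and by 0.47 and 0.44 in MitoPositive cells. Lpin1, a phosphatidate phosphatase that is also a coactivator, rose by log2 0.52 ± 0.0630 and 0.55 ± 0.0631 (adjusted p = 7.65e-05 and 3.62e-05). Pprc1, a coactivator of the PGC-1 family, rose by log2 0.30 and 0.46. Ppargc1b, another member of that family, fell in MitoPositive cells (log2 -0.53 ± 0.134, adjusted p = 0.00751) and stood at log2 -0.13 ± 0.133 in MitoNegative cells, adjusted p = 0.491. Ppargc1a had 0 to 2 counts per library and was not tested.

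Of 28 other textbook PPAR targets listed, 11 were tested, with 2 higher and 5 lower in MitoNegative cells and 2 higher and 3 lower in MitoPositive cells. Acsl1, which activates long-chain fatty acids, rose by log2 0.44 ± 0.114 and 0.51 ± 0.114 (adjusted p = 0.00943 and 0.0036). Abca1, the cholesterol exporter, fell from 25.2 ± 1.37 CPM in monoculture to 12.8 ± 1.43 and 12.1 ± 1.39 CPM (log2 -0.98 ± 0.103 and -1.05 ± 0.104). Ucp2, a mitochondrial carrier, fell by 0.46 and 0.36 on the log2 scale, and the call in MitoPositive cells was lost without MitoPositive B or monoculture D (log2 -0.28 and -0.21). Fabp5, a fatty acid binding protein, was lower in MitoNegative cells (log2 -0.50 ± 0.123, adjusted p = 0.00679), and its MitoPositive value of log2 -0.30 ± 0.123 did not pass (adjusted p = 0.0718). The MitoPositive value of Fabp5 passed without monoculture B (log2 -0.43). It also passed with the letter as a block (log2 -0.29), though letter C did not pair MitoPositive with monoculture libraries. Angptl4, a secreted lipase inhibitor, was lower in MitoNegative cells by log2 -0.50 ± 0.133 (adjusted p = 0.011, lost without MitoNegative C at log2 -0.40) and stood at log2 -0.12 ± 0.132 in MitoPositive cells (adjusted p = 0.503). Cd36, the fatty acid translocase, was at 1.39 ± 0.328, 1.79 ± 0.566 and 1.69 ± 0.190 CPM in monoculture, MitoNegative and MitoPositive cells, with no call. Pdk4, a kinase that restrains pyruvate oxidation, had 0 counts in monoculture and 25 and 23 counts in the sorted groups and was not tested.

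Fatty acid uptake and activation held 15 tested genes of 23, with 5 higher and 4 lower in MitoNegative cells and 5 higher and 2 lower in MitoPositive cells. The acyl-CoA synthetases Acsl3 (log2 0.78 ± 0.142 and 0.72 ± 0.142) and Acsl4 (log2 0.30 ± 0.0558 and 0.34 ± 0.0558) rose in both sorted groups, as Acsl1 did. Acsl5, of the same family and at 183 ± 16.2, 157 ± 3.99 and 166 ± 2.44 CPM in monoculture, MitoNegative and MitoPositive cells, was lower in MitoNegative cells (log2 -0.22 ± 0.0655, adjusted p = 0.0178). That call was lost without MitoNegative C or monoculture D (log2 -0.20 and -0.15). In MitoPositive cells Acsl5 stood at log2 -0.14 ± 0.0655 (adjusted p = 0.0991), and it passed without monoculture B (log2 -0.21). Dbi, an acyl-CoA binding protein, fell by 0.41 and 0.45 on the log2 scale. Of 7 carnitine shuttle genes tested besides Cpt1a and Cpt2, 1 was higher and 1 lower in each sorted group than in monoculture. The higher one, Cpt1c, is at low counts. The lower one was Aldh9a1, an enzyme of carnitine synthesis (log2 -0.25 ± 0.0536 and -0.33 ± 0.0537). The carnitine-acylcarnitine carrier Slc25a20 stood at 72.6 ± 6.02, 80.3 ± 0.837 and 78.6 ± 1.24 CPM in monoculture, MitoNegative and MitoPositive cells and had no call.

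All 20 other mitochondrial beta-oxidation genes were tested, with 4 higher and 6 lower in MitoNegative cells and 8 higher and 5 lower in MitoPositive cells. Etfdh, which passes electrons from the dehydrogenases to ubiquinone, rose by log2 0.34 ± 0.0625 and 0.32 ± 0.0625, and Eci2, an enoyl-CoA isomerase, by log2 0.36 and 0.31. Acad11, another acyl-CoA dehydrogenase, passed in MitoPositive cells (log2 0.32 ± 0.0792, adjusted p = 0.00663) and in MitoNegative cells (log2 0.21 ± 0.0792, adjusted p = 0.0562) only with the letter as a block, total counts as the scale, no filter or a stricter one, or without MitoNegative B or monoculture D (log2 0.21 to 0.27). Acaa2, the thiolase for shorter chains, fell from 91.2 ± 7.63 CPM in monoculture to 67.3 ± 0.345 and 63.4 ± 3.69 CPM (log2 -0.44 ± 0.0675 and -0.53 ± 0.0676, adjusted p = 0.000383 and 8.27e-05). Acat1, the acetoacetyl-CoA thiolase, fell by 0.43 and 0.32 on the log2 scale. Hadh, the hydroxyacyl-CoA dehydrogenase for shorter chains, stood at log2 -0.11 ± 0.0841 and -0.17 ± 0.0842 with no call (adjusted p = 0.327 and 0.118). The MitoPositive value of Hadh passed with the letter as a block (log2 -0.17), though letter C did not pair MitoPositive with monoculture libraries.

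Peroxisomal beta-oxidation, which shortens very long chains, held 14 tested genes, with 1 higher and 6 lower in MitoNegative cells and 2 higher and 6 lower in MitoPositive cells. Hsd17b4, the multifunctional enzyme, fell by 0.56 and 0.46 on the log2 scale, and the sterol carrier thiolase Scp2 by 0.53 in each. Amacr, a racemase for branched chains, rose by log2 0.62 ± 0.143 and 0.70 ± 0.143. Pecr, a peroxisomal enoyl-CoA reductase, passed in MitoPositive cells (log2 0.50 ± 0.150, adjusted p = 0.0183, lost without MitoPositive B at log2 0.34). In MitoNegative cells it stood at log2 0.36 ± 0.150 (adjusted p = 0.0783) and passed with the letter as a block (log2 0.35). Of 9 tested genes of propionyl-CoA and ketone body handling, 0 were higher and 5 lower in each sorted group. They included Oxct1, which activates ketone bodies (log2 -0.49 and -0.55), and Pccb, a propionyl-CoA carboxylase subunit (log2 -0.54 and -0.49).

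Malonyl-CoA and the kinase AMPK control Cpt1 activity, and 11 genes of this control were tested, with 1 higher and 3 lower in MitoNegative and 1 higher and 2 lower in MitoPositive cells. Mlycd, which breaks malonyl-CoA down, rose by log2 0.31 ± 0.0656 and 0.34 ± 0.0657. The AMPK gamma subunit gene Prkag1 fell by 0.35 and 0.30 on the log2 scale. Prkag2, another gamma subunit gene, fell by 0.38 and 0.50, and the call in MitoNegative cells was lost without MitoNegative B or C (log2 -0.30 and -0.33). Acaca, which makes malonyl-CoA, was lower in MitoNegative cells by log2 -0.15 ± 0.0544 (adjusted p = 0.0422), a call lost when any 1 library other than monoculture B or D was left out (log2 -0.11 to -0.16), with total counts as the scale (log2 -0.14) and with no filter (log2 -0.15) or a stricter one (log2 -0.14). It stood at log2 -0.07 ± 0.0544 in MitoPositive cells (adjusted p = 0.354).

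Of the 17 lipid droplet and lipid storage genes tested, 3 were higher and 1 lower in MitoNegative cells, and 7 higher and 2 lower in MitoPositive cells, than in monoculture. With the letter as a block, 5 were higher and 2 lower in MitoNegative cells. The shares of all genes given above are from the fit without the block, so nothing is read from the blocked count. Dgat1, which makes triglyceride, rose from 12.1 ± 0.791 CPM in monoculture to 39.1 ± 4.03 CPM in MitoNegative (log2 1.69 ± 0.0979, adjusted p = 4.93e-07) and 55.5 ± 6.01 CPM in MitoPositive cells (log2 2.20 ± 0.0988, adjusted p = 4.87e-08). Between the sorted groups Dgat1 stood at log2 0.51 ± 0.0929, higher in 3 of 3 letters (adjusted p = 0.0574, and 0.0253 with the letter as a block). Agpat5, an acyltransferase on the way to phosphatidate, was the 1 gene of the 113 that passed between the sorted groups without the block. It rose from 26.2 ± 0.710 CPM in MitoNegative to 33.2 ± 1.17 CPM in MitoPositive cells (log2 0.34 ± 0.0569, adjusted p = 0.0464), with monoculture at 24.6 ± 0.500 CPM. That call was lost without MitoPositive B or C, MitoNegative B, C or D, or monoculture C, at log2 0.32 to 0.36. Agpat2 and the seipin gene Bscl2 rose in MitoPositive cells against monoculture (log2 0.43 ± 0.0880 and 0.42 ± 0.105), and in MitoNegative cells both passed with the letter as a block (log2 0.24 and 0.26). Lipa, the lysosomal lipase, fell by 0.36 and 0.48 on the log2 scale in the sorted groups. Pnpla2, the main triglyceride lipase, had no call (log2 0.05 ± 0.0700 and -0.07 ± 0.0701). Plin3, another droplet coat gene, fell by 0.27 on the log2 scale in MitoPositive cells (adjusted p = 0.023), a call lost without MitoPositive B or C or monoculture C or D (log2 -0.20 to -0.26) and with total counts as the scale (log2 -0.24).

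**Figure D5:**
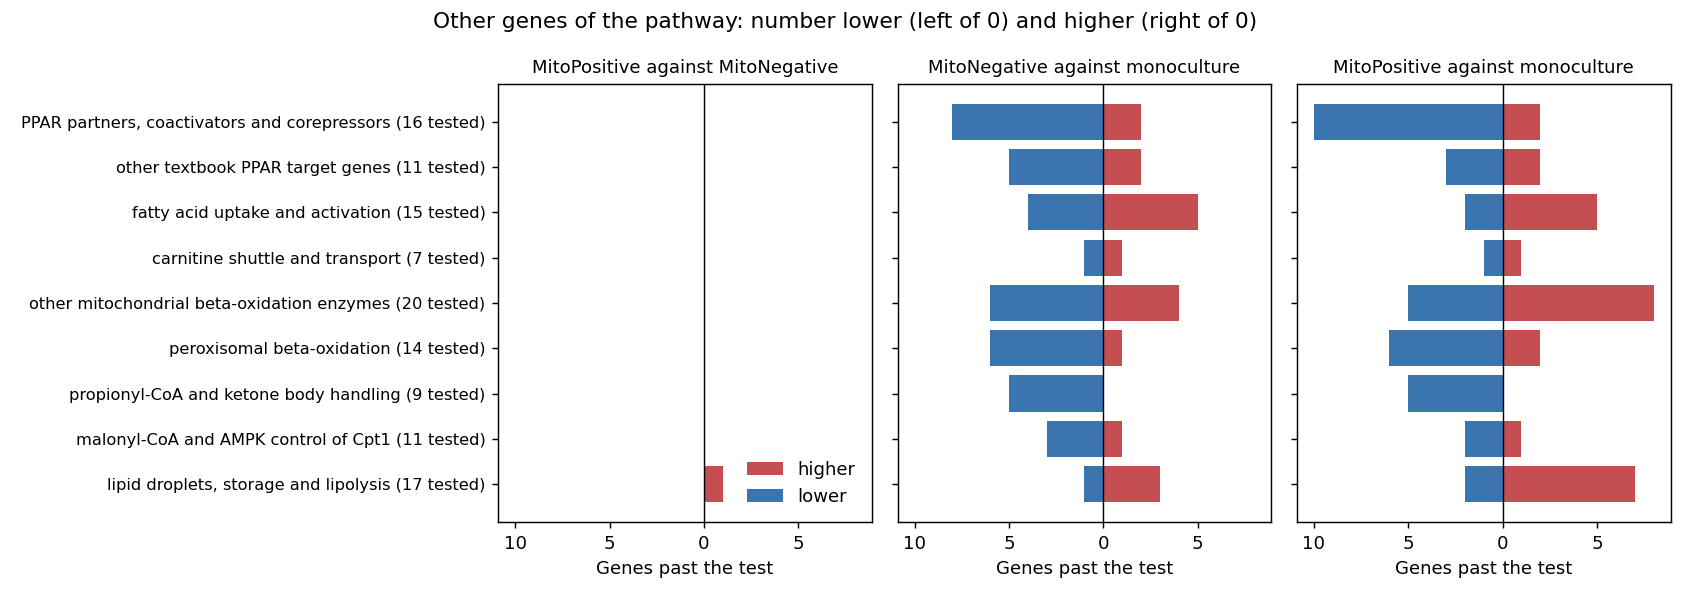
Number of tested genes of each of the 9 lists (horizontal axis) called lower (left of 0) or higher (right of 0) in the 3 comparisons. Against monoculture, the peroxisomal, propionyl-CoA, cofactor, PPAR target and malonyl-CoA lists hold more lower than higher calls in both sorted groups. The lipid droplet and uptake lists hold more higher than lower calls there. Between the sorted groups the only call, from the fit without the letter as a block, is 1 higher gene, in the lipid droplet list.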

How the data were processed

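RNA from 9 libraries of mouse CD8+ T cells was sequenced after ribosomal RNA depletion. The deposited table holds raw read counts per gene. GRCm38, STAR 2.7, featureCounts, cutadapt, bcl2fastq and DESeq2 are listed, per the submitters' processing notes; annotation release and strand setting: not given in the sources used here. Sample titles carry a time of 0 h and the protocol 36 h of co-culture; the groups follow the treatment labels. Replicates differed by more than sampling noise (chi-square 27.2 to 40.4 per degree of freedom).

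The 99 spike-in rows held 0 counts and were left out. Genes were kept by edgeR's filter (minimum count 10, minimum total 15; at least 99.96% of counts kept), scaled by TMM and fitted with the robust quasi-likelihood test of edgeR 4.0.16 (R 4.3.3) on 9 libraries by group, with 6 residual degrees of freedom and Benjamini-Hochberg adjustment over 15711 genes at 0.05. The script was tested on simulated data. CPM is the TMM-scaled value, and per-kilobase levels divide it by the deposited exon length. Alternatives were DESeq2 1.42.0, limma 3.58.1, other scales and filters, the letter as a block and each library left out.

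The members and lists were chosen with earlier results of these data known. Besides the members, the text names up to 2 genes in each direction per list and comparison, those with the largest difference where mean log2 CPM reached 1, and a fixed set (Ppara, Rxra, Ppargc1a, Cd36, Fabp5, Angptl4, Pdk4, Slc25a20, Acads, Hadh, Acaa2, Acaca, Pnpla2 and Plin3). Acsl4, Acsl5, Ucp2, Agpat2, Bscl2, Cpt1c, Vldlr, Acot1 and the Dgat1 difference between sorted groups were added after their values were seen. Some genes that the rule selects are not reported here. Marker lists covered CD8+ T, stromal, adipocyte, myeloid and B cells. Letters paired MitoPositive and MitoNegative libraries (residual correlations 0.402, 0.339 and 0.459) and MitoNegative and monoculture libraries (0.213, 0.153 and 0.111); the labels do not say what a letter marks. For MitoPositive and monoculture, letters B and D were at 0.248 and 0.163. Letter C, at 0.0521, was under the 0.1 required. Where the block changes a call in the text, the blocked value stands beside it.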

Additional observations from a re-analysis of the deposited data

How the results depend on the processing

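Of the genes tested, 26 passed between MitoPositive and MitoNegative cells, 53.8% of them higher. The count was 15 with DESeq2 size factors (66.7% higher), 14 with total counts as the scale (71.4% higher), 171 with no filter on low counts, 4 with a stricter filter (minimum count 50), 379 with DESeq2's Wald test, 33 with limma voom and 367 with the letter as a replicate block. It ranged from 1 to 120 when 1 library was left out. Of the members, 1 passed, and 0 did with the stricter filter, which removes Pparg, and 0 to 1 with 1 library left out. Of the pathway genes, 1 passed, against 0 with DESeq2 size factors, 2 with no filter, 0 with the stricter filter, 3 with DESeq2's test, 2 with the replicate block and 0 to 2 with 1 library left out. The cause of these shifts was not tested, apart from the removal of Pparg. Counts against monoculture stayed within 1.5 times under every alternative run, over all genes, members and pathway genes. Over members and other named genes, 0 alternatives reversed a called direction. The sign of Cpt1a between sorted groups, not called, turned without MitoPositive B (log2 0.07) or MitoNegative D (log2 0.04). Besides the calls given with the results, Cpt2 in MitoPositive cells against monoculture passed with total counts, the stricter filter and without monoculture D (log2 0.37), and Hadha in MitoNegative cells passed without monoculture C. The block changed no member's call other than those of Cpt2 and Hadha, given with the results. Letter C does not pair MitoPositive with monoculture libraries. Pparg, with 25 counts over 3 MitoNegative libraries and 1 in monoculture, is limited by depth.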

Other observations

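A small set of fatty acid genes was near the floor in monoculture and present at low level after co-culture. Cpt1c, the carnitine palmitoyltransferase isoform best known from neurons, had 17 counts over 3 monoculture libraries, 157 in MitoNegative and 272 in MitoPositive cells (0.0938 ± 0.0351, 0.768 ± 0.225 and 1.34 ± 0.216 CPM; SD, n = 3). Its log2 difference from monoculture was 3.01 ± 0.352 and 3.81 ± 0.344. Vldlr, a receptor for triglyceride-rich lipoproteins, had 16, 171 and 227 counts, with log2 differences of 3.22 ± 0.346 and 3.63 ± 0.341. Acot1, an acyl-CoA thioesterase with a near-identical neighbour, Acot2, had 6, 111 and 125 counts, so reads could be split between the copies. Between MitoNegative and MitoPositive cells Cpt1c stood at log2 0.81 ± 0.263 (adjusted p = 0.262), higher in 3 of 3 letters. Stromal marker sums moved with co-culture over the same libraries, and their part in these counts was not tested. These genes were named after their values were seen. In monoculture they lay under the filter's minimum count, so they entered the test only through the co-culture libraries. Their differences from monoculture are therefore given as a description.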
